A study of Mus musculus with 6 samples.

Results

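The genes described here encode the extracellular and cell surface metalloproteinases of the mouse and their tissue inhibitors. They were taken from the annotation of the array as every gene whose symbol is an Mmp (matrix metalloproteinase), Adam, Adamts, Adamtsl (ADAMTS-like) or Timp (tissue inhibitor of metalloproteinases) followed by a number. Of 18193 genes with a probe set of their own, 70 met this rule, and they had 124 probe sets. They comprised 18 Mmp, 28 Adam, 15 Adamts, 5 Adamtsl and 4 Timp genes. The rule uses symbols alone, although it was chosen with earlier results of these data known.

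The RNA came from endothelium-enriched cells of mouse embryos of mixed genetic background at embryonic day 9.5, labelled Wt in the short sample names and not cultured before sorting. Heart tube, caudal-half embryo and yolk sac cells were sorted as CD31+, CD41- and CD45-, so that surface CD31 was required and the blood cell antigens CD41 and CD45 were selected against. Each tissue was measured on 2 Affymetrix arrays of independent biological replicates, 6 arrays in all. The sources used here do not say how many embryos went into a sample. A level is the natural log of the authors' RMA signal, a background-corrected and quantile-normalised summary per probe set. These logs ran from 0.899 to 14.6, the range that RMA values usually have in log2 units, and the authors' base is unknown. The highest deposited signal was 2172540. Were the deposited signals linear, each difference in log2 units would be 1.44 times the one given here. Were they natural exponentials of log2 values, the differences given here would already be in log2 units. The differences are therefore not turned into fold changes. The tests against no difference are the same in either case. Levels of different genes come from different probes and are not compared.

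Over all genes the correlation (r) was 0.985 to 0.989 within a tissue and 0.948 to 0.970 between tissues. The bacterial controls used here are the Bacillus subtilis control RNAs, with 27 probe sets, which read 1.33 to 4.03. The other bacterial and phage controls of the array were not used for this limit. A mean at or below 4.03 is called not above the controls. All 19 genes of a pan-endothelial list were above the controls in each tissue. Of 12 macrophage genes, 9 in heart tube cells and 7 in each of the other tissues were not above them, Ptprc among them, the gene of CD45.

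Matrix metalloproteinases are zinc enzymes that are made as inactive proenzymes and cut collagens, fibronectin and other matrix proteins once a propeptide has been removed. ADAMTS proteases are secreted and cut proteoglycans such as versican and aggrecan, whereas ADAM proteases sit in the membrane and release the outer parts of receptors, ligands and adhesion proteins. TIMPs bind the active site of many of these enzymes. In the early heart the endocardium faces a jelly rich in versican and hyaluronan, whose turnover by ADAMTS proteases is part of trabecular and valve development in the mouse.

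Among the measured genes, position in the genome divided the Mmp family in a way that the selection did not use. In the RefSeq gene table (GRCm38.p6), 9 Mmp members neighbour each other in one stretch of chromosome 9 (Mmp13, Mmp12, Mmp1b, Mmp3, Mmp1a, Mmp10, Mmp8, Mmp20 and Mmp7, which encode collagenases, stromelysins, metalloelastase, enamelysin and matrilysin). None of these 9 had a tissue mean above the controls, and their values on single arrays ran from 0.94 to 3.68. All 9 of the other Mmp genes exceeded the controls in at least 1 tissue, though not all clearly. Mmp16 did so in heart tube cells alone (4.02 and 4.15), and 3 of its 4 probe sets were not above the controls in any tissue. Of the 2 probe sets of Mmp9, 1 was not above them in any tissue. This grouping was made after the values had been seen.

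The promoter sequences of these genes are shown because 2 short motifs recur in them. AP-1 sites near the start are a textbook feature of collagenase and stromelysin genes. RefSeq windows were found for 41 of the 70 members, 46 windows in all, and the 250 bases before each annotated start were searched on both strands for 3 motifs. The AP-1 site was searched by its letters TGAGTCA and the core promoter element known as the TATA box by its letters TATAAA. Sites of the blood and heart factors of the GATA family were searched in a pair of spellings, of which the first was AGATAA, while the other began with a different base and was written TGATAA. An AP-1 match was present in the windows of 7 of the 9 chromosome 9 genes and TATAAA in 7, with both in 6. Over all 32851 windows the shares were 4.46% for AP-1, 12.4% for TATAAA and 16.6% for GATA. These shares count windows, whereas the chromosome 9 counts are of genes, and Mmp12 and Mmp7 had more than 1 window. The upstream bases of the chromosome 9 genes held 37.2% to 53.2% G and C, where the median over all windows was 52.4%. The part of this base content in the matches was not tested. Outside chromosome 9 only 1 member window held an AP-1 match, that of a start of Adam19. In the 46 member windows the GATA share was 6.52%. None of these motifs contains another, and a match of letters is not evidence of binding.

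Examples are the windows of Mmp13 (chr9:7272264-7272513, plus strand), Mmp3 (chr9:7445572-7445821, plus strand) and Mmp10 (chr9:7502092-7502341, plus strand), all not above the controls, in build GRCm38.p6. They are followed by those of Adamts1 (chr16:85803114-85803363, minus strand), Timp2 (chr11:118355412-118355661, minus strand) and Mmp14 (chr14:54431348-54431597, plus strand), which were above the controls in each tissue. Each is written 5′ to 3′ and ends at the base before the start, with AP-1 and TATA matches in capitals.
Mmp13: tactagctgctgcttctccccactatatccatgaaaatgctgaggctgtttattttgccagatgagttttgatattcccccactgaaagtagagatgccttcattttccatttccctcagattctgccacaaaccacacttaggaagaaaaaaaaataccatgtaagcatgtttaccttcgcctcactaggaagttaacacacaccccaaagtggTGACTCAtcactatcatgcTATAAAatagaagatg
Mmp3: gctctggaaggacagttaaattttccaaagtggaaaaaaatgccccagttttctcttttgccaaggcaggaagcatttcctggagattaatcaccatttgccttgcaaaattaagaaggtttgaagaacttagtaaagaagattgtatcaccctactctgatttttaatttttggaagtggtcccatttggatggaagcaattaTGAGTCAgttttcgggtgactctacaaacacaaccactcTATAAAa
Mmp10: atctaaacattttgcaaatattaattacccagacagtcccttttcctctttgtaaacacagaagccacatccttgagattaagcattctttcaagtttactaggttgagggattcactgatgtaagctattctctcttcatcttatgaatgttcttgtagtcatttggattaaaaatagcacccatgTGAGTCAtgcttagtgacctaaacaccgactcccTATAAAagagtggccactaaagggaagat
Adamts1: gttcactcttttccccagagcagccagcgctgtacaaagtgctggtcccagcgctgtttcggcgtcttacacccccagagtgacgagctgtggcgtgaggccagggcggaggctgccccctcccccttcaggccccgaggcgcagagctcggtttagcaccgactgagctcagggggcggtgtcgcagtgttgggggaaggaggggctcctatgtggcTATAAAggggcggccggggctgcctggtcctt
Timp2: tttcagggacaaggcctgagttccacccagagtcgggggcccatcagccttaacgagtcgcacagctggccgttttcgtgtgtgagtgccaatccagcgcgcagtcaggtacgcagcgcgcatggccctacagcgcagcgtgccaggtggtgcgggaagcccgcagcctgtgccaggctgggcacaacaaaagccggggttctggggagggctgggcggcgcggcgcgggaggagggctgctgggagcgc
Mmp14: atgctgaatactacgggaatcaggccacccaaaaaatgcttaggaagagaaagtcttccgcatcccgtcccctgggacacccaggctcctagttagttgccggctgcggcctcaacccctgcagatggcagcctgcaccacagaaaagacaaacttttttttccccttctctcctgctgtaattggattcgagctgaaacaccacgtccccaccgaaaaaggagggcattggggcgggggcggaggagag
In Mmp13 the AP-1 letters began 35 bases before the start and the TATA letters 16 bases before it. The corresponding distances were 46 and 7 bases in Mmp3, and 63 and 29 bases in Mmp10. Adamts1 held TATAAA at 32 bases before its start and neither of the other motifs, and the windows of Timp2 and Mmp14 held none of the 3.

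**Figure D1:**
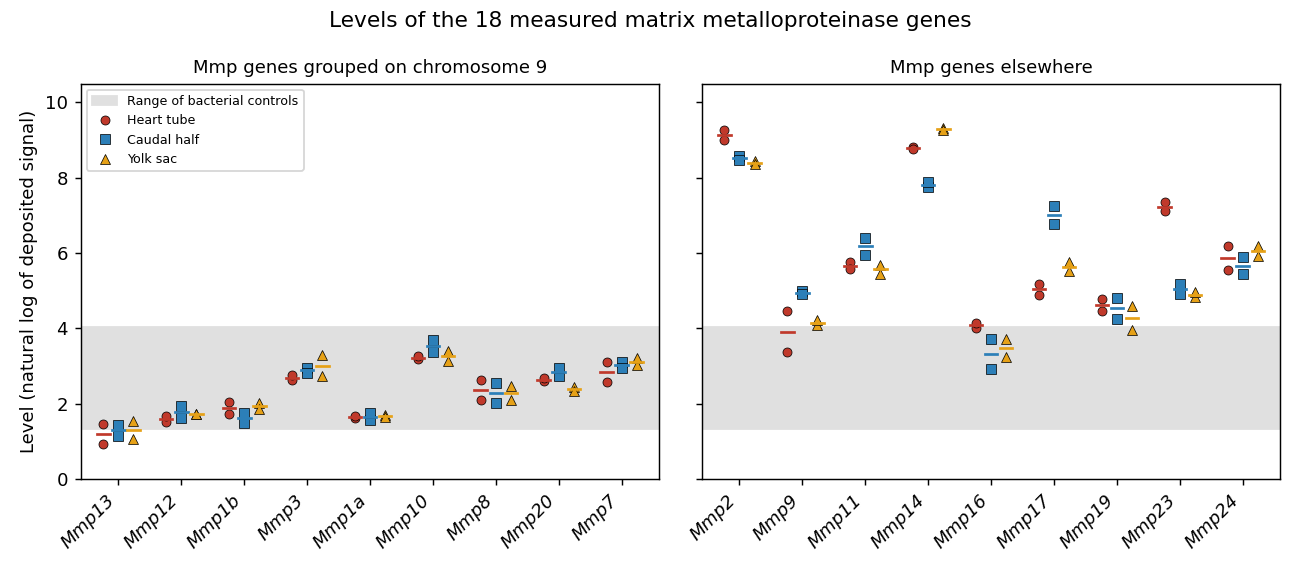
Levels (natural log of deposited signal) of the 18 measured Mmp genes on each of 6 arrays, with the mean of each tissue as a short line and the range of the bacterial controls, 1.33 to 4.03, in grey. The 9 genes grouped on chromosome 9 stay at or below that range, whereas Mmp2, Mmp14, Mmp17 and Mmp23 separate the tissues above it.

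Over all members, 40 of 70 (57.1%) exceeded the controls in at least 1 tissue, against 73.3% of all genes, and 28 in all 3. Tissue means were compared with limma over all genes and arrays, and a gene is called at a Benjamini-Hochberg adjusted p under 0.05. In at least 1 of the 3 comparisons 19 members were called, which is 27.1% of them beside 16.5% of all genes. Of these, 8 were called in 1 comparison, 9 in 2 and 2 in 3. The comparisons share arrays and are not independent.

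Against caudal-half cells, 5 members were higher in heart tube cells and 5 lower, 7.14% each, where 2.86% and 2.65% of all genes were called. Against yolk sac cells, 5 were higher in heart tube cells (7.14%; 5.14% of all genes) and 7 lower (10%; 6.67% of all genes). Between caudal-half cells and yolk sac cells, 2 were higher in caudal-half cells (2.86%; 4.22% of all genes) and 8 lower (11.4%; 4.86% of all genes). The median difference of the members was -0.02, -0.05 and -0.01 in these comparisons, beside -0.08, -0.06 and 0.02 over all genes. The medians thus lay near those of all genes, and the calls were those of single members. Called in either direction were 14.3% of the members beside 5.51% of all genes for heart tube against caudal-half cells, 17.1% beside 11.8% for heart tube against yolk sac cells, and 14.3% beside 9.08% for caudal-half against yolk sac cells.

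**Figure D2:**
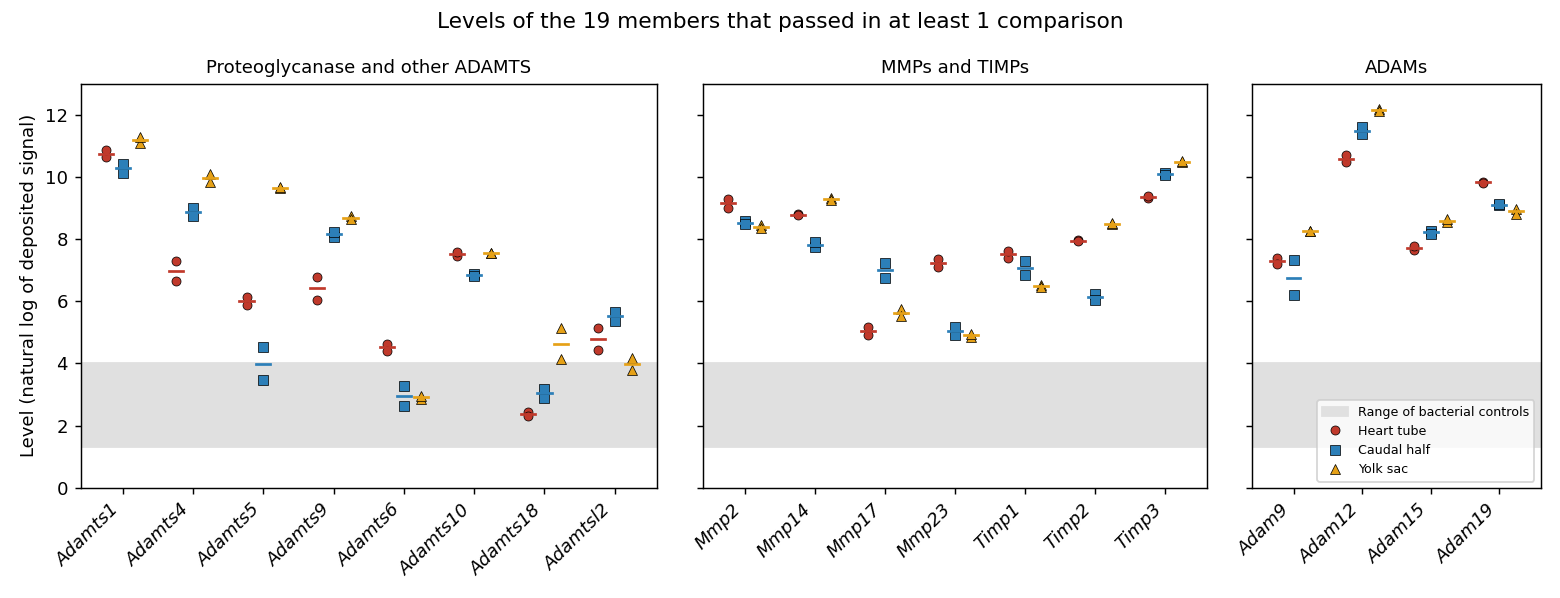
Levels (natural log of deposited signal) of the 19 members called in at least 1 comparison, with both arrays of heart tube, caudal-half and yolk sac as points, the tissue means as short lines and the range of the bacterial controls in grey. Adamts4 and Adamts5 stand highest in yolk sac cells, Mmp23 stands high in heart tube cells and Timp2 low in caudal-half cells.

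The ADAMTS proteases that cut versican and aggrecan held the widest differences among the members. Adamts5, the protease also called aggrecanase 2, read 5.87 and 6.15 in heart tube cells, 3.48 and 4.51 in caudal-half cells, and 9.64 and 9.67 in yolk sac cells. Both yolk sac arrays lay far above all others. The difference was -5.66 ± 0.33 (SE) between caudal-half cells and yolk sac cells and -3.64 ± 0.33 between heart tube cells and yolk sac cells, with limma adjusted p of 0.000539 and 0.00143 (n = 2 each). Of its 4 probe sets, 3 passed in both comparisons, and the fourth was not above the controls in any tissue. Adamts5 was also called higher in heart tube cells than in caudal-half cells (2.02 ± 0.33, limma adjusted p = 0.0221). Only the probe set that represents the gene passed there, the others differed by 0.06 to 0.95, and the caudal mean of 4.0 was not above the controls.

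Adamts4, aggrecanase 1, read 6.67 and 7.28 in heart tube cells, 8.98 and 8.75 in caudal-half cells, and 9.83 and 10.10 in yolk sac cells. The 3 tissues did not overlap, with heart tube cells lowest and yolk sac cells highest. It was lower in heart tube cells than in yolk sac cells (-2.99 ± 0.25, limma adjusted p = 0.000982) and in caudal-half cells (-1.89 ± 0.25, 0.00989). The difference of caudal-half cells from yolk sac cells was smaller (-1.10 ± 0.25, adjusted p = 0.0458). Both probe sets of the gene ranked the tissues alike, and both passed between heart tube cells and yolk sac cells, though 1 of 2 passed between heart tube cells and caudal-half cells, and 0 of 2 between caudal-half cells and yolk sac cells, when all probe sets were tested.

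Adamts9, a versican-cleaving protease, read 6.04 and 6.79 in heart tube cells, 8.07 and 8.24 in caudal-half cells, and 8.73 and 8.65 in yolk sac cells. Each heart tube array was below every other array. Its differences were -1.74 ± 0.26 from caudal-half cells and -2.28 ± 0.26 from yolk sac cells (limma adjusted p = 0.0165 and 0.00333). Its other 2 probe sets also gave negative differences, from -0.65 to -1.42, and did not pass.

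Adamts1, which also cuts versican, varied less than these 3. It read 10.64 and 10.85 in heart tube cells, 10.14 and 10.41 in caudal-half cells, and 11.08 and 11.29 in yolk sac cells, and passed between caudal-half cells and yolk sac cells alone (-0.91 ± 0.19, limma adjusted p = 0.0357). Of the 7 measured proteoglycanase genes (Adamts1, Adamts4, Adamts5, Adamts8, Adamts9, Adamts15 and Adamts20), 3 were lower in heart tube cells than in yolk sac cells and 3 lower in caudal-half cells than in yolk sac cells, with 0 higher in either, where 6.67% and 4.86% of all genes were called lower. Between heart tube cells and caudal-half cells, 1 was higher and 2 were lower, where 2.86% and 2.65% of all genes were called. Counted without adjustment, 23 and 18 of all 70 members had limma p under 0.05 in the comparisons of heart tube and caudal-half cells with yolk sac cells. The share of all genes under that unadjusted threshold is not given here. These counts and the unadjusted counts below therefore have no background to be read against. Adamts8 and Adamts20 were not above the controls in any tissue.

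The smaller of these calls depended on single arrays. Adamts1 lost its call whichever of the 6 arrays was left out (highest limma adjusted p 0.158). That of Adamts4 between caudal-half and yolk sac was lost without either array of either tissue (up to 0.179), and that against caudal-half cells without its first array (0.0727). Adamts5 lost its heart tube to caudal-half call without either heart tube array (up to 0.125), and Adamts9 lost the same comparison without either caudal array or the first heart tube array (up to 0.0850). The calls of Adamts4, Adamts5 and Adamts9 between heart tube and yolk sac, and of Adamts5 between caudal-half and yolk sac, held in each of the 14 alternative settings.

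In pooled RNA, fewer cells of a type and less RNA per cell cannot be told apart. Visceral endoderm, the epithelium that covers yolk sac vessels, was represented by 15 measured genes, of which 13 were lower in heart tube cells and 13 lower in caudal-half cells than in yolk sac cells. The median level of that list was 4.27 and 4.54 on the heart tube arrays, 4.34 to 4.46 in caudal-half cells and 9.32 to 9.58 in yolk sac cells. Of its genes, 6 were not above the controls in heart tube cells, 4 in caudal-half cells and 1 in yolk sac cells, with Foxa2 among them in each tissue. Of 15 mesenchymal genes, 5 were lower and 4 higher in heart tube cells than in yolk sac cells, and 6 lower and 3 higher in caudal-half cells. The mesenchymal list's median was 7.53 to 7.62 in heart tube cells, 5.70 to 5.77 in caudal-half cells and 7.18 to 7.41 in yolk sac cells. In heart tube and caudal-half cells 4 of its 15 genes were not above the controls, and in yolk sac cells 3, Tbx18 among them in each tissue. Of 10 erythroid genes, 6 were lower and 1 higher in heart tube cells than in yolk sac cells, and 7 lower and 0 higher in caudal-half cells. The part of these cells in the ADAMTS differences was not tested.

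Further ADAMTS genes were called near the detection limit or with small differences. Adamts18 read 2.44 and 2.31 in heart tube cells, 2.88 and 3.19 in caudal-half cells, and 5.13 and 4.14 in yolk sac cells, where its mean alone was above the controls. It differed by -2.26 ± 0.33 and -1.60 ± 0.33 from yolk sac cells (limma adjusted p = 0.00775 and 0.0323). The first call was lost without the second heart tube array (0.0514) and the second in each setting that left out 1 array but the second of yolk sac cells (up to 0.151). The other 2 probe sets of Adamts18 were not above the controls.

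Adamts6, which is needed for heart development in the mouse, read 4.64 and 4.42 in heart tube cells, 2.62 and 3.28 in caudal-half cells, and 2.86 and 2.96 in yolk sac cells. It was above the controls in heart tube cells alone, with differences of 1.58 ± 0.25 and 1.62 ± 0.25 (limma adjusted p = 0.0189 and 0.00967). Both calls were lost without the first heart tube array, the first also without the second heart tube or first caudal array (up to 0.119) and the second without the first yolk sac array (up to 0.0672). Its second probe set was not above the controls.

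Adamts10, a protease associated with fibrillin microfibrils, was lower in caudal-half cells (6.89 and 6.82) than in yolk sac cells (7.57 and 7.54), with a difference of -0.70 ± 0.16 (limma adjusted p = 0.0449). Adamtsl2, a secreted ADAMTS-like protein without protease domain that binds fibrillin, was higher in caudal-half cells (5.38 and 5.65) than in yolk sac cells (3.78 and 4.18), by 1.53 ± 0.28 (0.0238), although its yolk sac mean of 3.98 was not above the controls. The groups did not overlap in either gene. With all probe sets tested, 0 of 2 passed for Adamts10 (-0.89 and -0.70). Adamts10 lost its call whichever array was left out (up to 0.156) and after centring array medians, and Adamtsl2 without any 1 of the 4 arrays compared (up to 0.113). Adamts19 read 1.92 to 2.5 on the 6 arrays and was not above the controls.

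**Figure D3:**
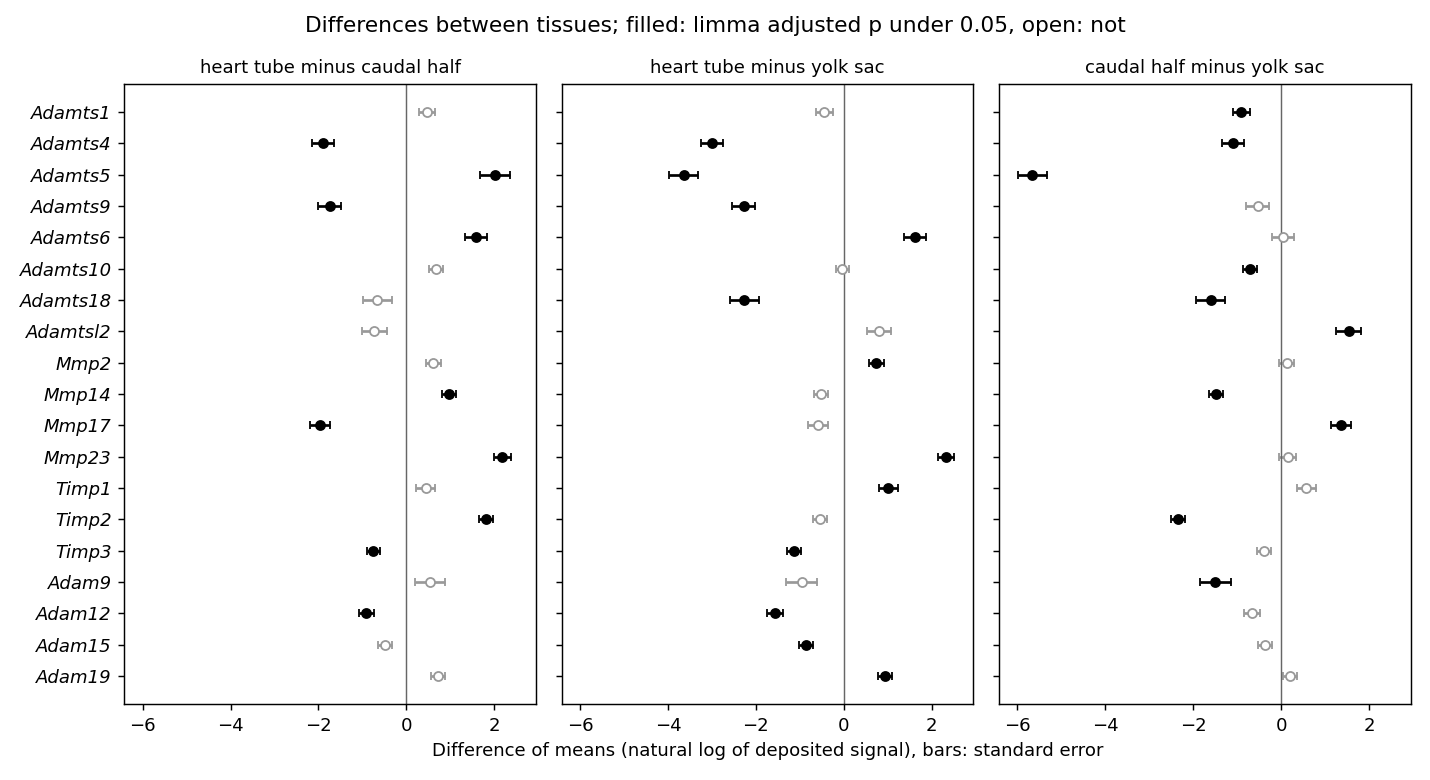
Differences of tissue means (natural log of deposited signal) with their standard errors for the 19 called members, in 3 comparisons of 2 against 2 arrays, filled where the limma adjusted p is under 0.05. The widest point is Adamts5 between caudal-half and yolk sac (-5.66), and Adamts4, Adamts5, Adamts9 and Adamts18 lie left of 0 where heart tube cells are set against yolk sac cells.

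Among the Mmp genes, Mmp23 marked the heart tube. Mmp23, a membrane-anchored protease without the usual hemopexin domain, read 7.35 and 7.12 in heart tube cells, 4.91 and 5.18 in caudal-half cells, and 4.85 and 4.95 in yolk sac cells. Both heart tube arrays stood clear of the other 4. The differences were 2.18 ± 0.19 and 2.33 ± 0.19 (limma adjusted p = 0.00187 and 0.000842, n = 2 each), and both calls held in each of the 14 alternative settings. Its second probe set read 4.28 to 4.77 on all arrays and differed by -0.25 and -0.14, so the difference rests on 1 of 2 probe sets.

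Mmp17, which is tied to the membrane by a lipid anchor, was highest in caudal-half cells. It read 4.90 and 5.19 in heart tube cells, 6.76 and 7.24 in caudal-half cells, and 5.75 and 5.52 in yolk sac cells. The heart tube minus caudal-half difference was -1.96 ± 0.23 (limma adjusted p = 0.00621) and the caudal-half minus yolk sac difference 1.37 ± 0.23 (0.0171). The first missed the threshold without the first heart tube array (0.05003), and the second without the second caudal or either yolk sac array (up to 0.0747).

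Mmp14, Mmp2 and Timp2 belong together in background, since the membrane protease of Mmp14 activates the gelatinase of Mmp2 on a bridge of TIMP2. Mmp14 read 8.80 and 8.77 in heart tube cells, 7.75 and 7.89 in caudal-half cells, and 9.33 and 9.27 in yolk sac cells. Timp2 read 7.97 and 7.93 in heart tube cells, 6.22 and 6.06 in caudal-half cells, and 8.48 and 8.51 in yolk sac cells. Both genes were thus lowest in caudal-half cells without overlap, and neither passed between heart tube cells and yolk sac cells (-0.52 and -0.54, limma adjusted p = 0.0956 and 0.0844).

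The Timp2 difference was 1.81 ± 0.16 between heart tube cells and caudal-half cells and -2.35 ± 0.16 between caudal-half cells and yolk sac cells (limma adjusted p = 0.00214 and 0.000878). It held in each of the 14 alternative settings, and of 6 probe sets 5 passed in the first comparison and 6 in the second. The Mmp14 difference was 0.96 ± 0.16 (0.0221) and -1.48 ± 0.16 (0.00417), with 2 and 3 of 3 probe sets passing. The first of these was lost without any 1 heart tube or caudal array (up to 0.131), and the second held throughout. The mesenchymal list given above was also lowest in caudal-half cells by its median, with 7 of 15 genes higher in heart tube than in caudal-half cells and 6 lower in caudal-half than in yolk sac cells. Its part in the Mmp14 and Timp2 differences was not tested.

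Mmp2 read 9.28 and 9.02 in heart tube cells, 8.59 and 8.48 in caudal-half cells, and 8.45 and 8.36 in yolk sac cells. It passed between heart tube and yolk sac (0.74 ± 0.17, limma adjusted p = 0.0421) and not between heart tube and caudal-half (0.61, 0.114). Leaving out any 1 array ended the call (up to 0.207), and 1 of 2 probe sets passed. The other gelatinase gene, Mmp9, read 3.37 and 4.45 in heart tube cells, 4.99 and 4.91 in caudal-half cells, and 4.09 and 4.22 in yolk sac cells, and was called in no comparison of all 6 arrays. Without the second heart tube array it was lower in heart tube than in caudal-half cells (limma adjusted p = 0.0322), with the remaining heart tube array not above the controls. The stromelysin 3 gene Mmp11 read 5.44 to 6.40 and was not called either.

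**Figure D4:**
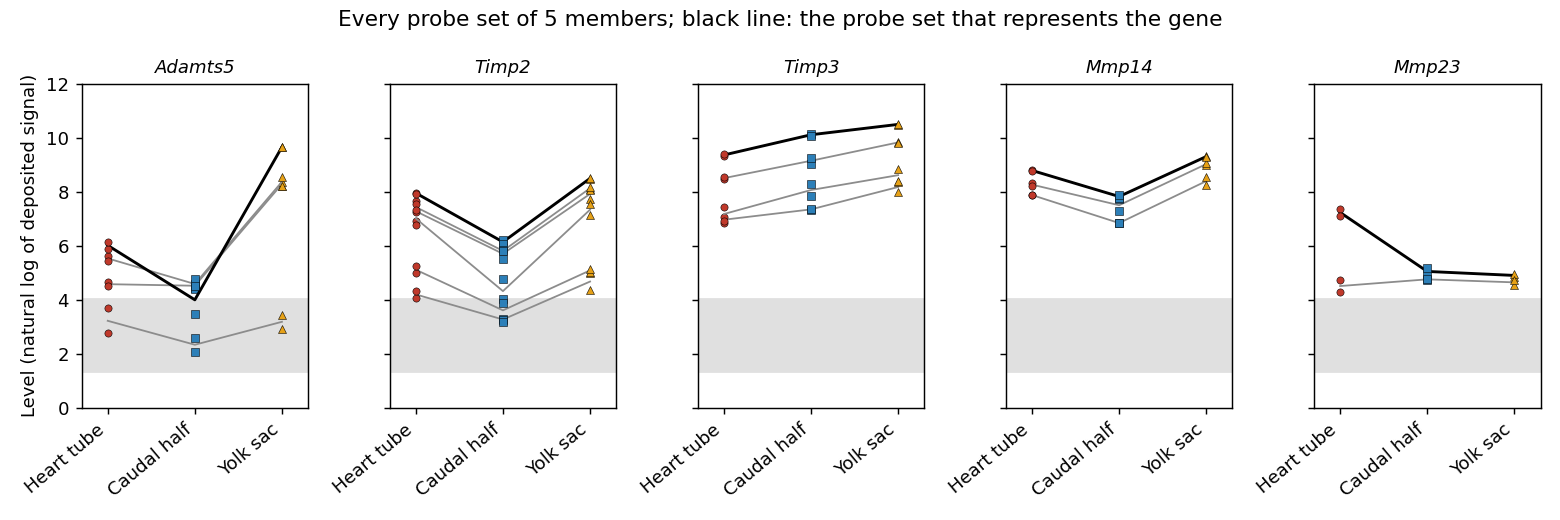
Levels (natural log of deposited signal) of every probe set of Adamts5, Timp2, Timp3, Mmp14 and Mmp23, with both arrays of each tissue as points and lines joining the means. The 6 lines of Timp2 and the 3 of Mmp14 dip in caudal-half cells, 3 of 4 lines of Adamts5 climb in yolk sac cells, and 1 of 2 lines of Mmp23 stays flat.

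The other inhibitors followed different orders. Timp3, which binds to matrix and inhibits ADAM17 and several ADAMTS proteases, read 9.33 and 9.39 in heart tube cells, 10.14 and 10.08 in caudal-half cells, and 10.47 and 10.51 in yolk sac cells. The heart tube was lowest without overlap, with differences of -0.75 ± 0.16 against caudal-half cells and -1.13 ± 0.16 against yolk sac cells (limma adjusted p = 0.0468 and 0.00652). All 4 probe sets passed against yolk sac cells and 0 of 4 against caudal-half cells, where the differences were -0.38 to -0.89. That comparison was lost whichever array was left out (up to 0.216), and the one with yolk sac cells without the first heart tube array (0.0511).

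Timp1 read 7.40 and 7.62 in heart tube cells, 7.31 and 6.84 in caudal-half cells, and 6.53 and 6.46 in yolk sac cells. It was higher in heart tube cells than in yolk sac cells (1.02 ± 0.21, limma adjusted p = 0.0280), a call lost without any 1 array of those tissues (up to 0.147). Timp4 read 3.14 to 3.59 and was not above the controls. Thus Timp1 was higher in heart tube than in yolk sac cells, whereas Timp2 was low in caudal-half cells and Timp3 low in heart tube cells.

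Of 28 ADAM genes 13 were above the controls in at least 1 tissue and 4 were called in at least 1 comparison, where 73.3% of all genes were above the controls and 16.5% were called. Adam12, a sheddase of growth factor ligands, read 10.47 and 10.70 in heart tube cells, 11.38 and 11.60 in caudal-half cells, and 12.18 and 12.12 in yolk sac cells. The tissues did not overlap. It was lower in heart tube cells than in yolk sac cells (-1.56 ± 0.18, limma adjusted p = 0.00313), with both probe sets passing, and this call held in each of the 14 settings. Against caudal-half cells it differed by -0.91 ± 0.18 (0.0389), with 1 of 2 probe sets passing, and this was lost whichever array was left out (up to 0.206).

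Adam19, needed for heart valve and septum formation in the mouse, read 9.85 and 9.82 in heart tube cells, 9.09 and 9.12 in caudal-half cells, and 8.97 and 8.82 in yolk sac cells. The heart tube arrays were above the other 4. Its difference from yolk sac cells was 0.94 ± 0.16 (limma adjusted p = 0.0140) and that from caudal-half cells, 0.73, missed the threshold (0.0548), though it passed with an intensity trend of the prior variance (0.0123) or without genes not above the controls (0.0416). The first was lost without the second yolk sac array or any heart tube array (up to 0.0862), and 1 of 2 probe sets passed.

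Adam15, a membrane protease found in endothelium, was lower in heart tube cells (7.66 and 7.77) than in yolk sac cells (8.54 and 8.63), with a difference of -0.87 ± 0.16 (limma adjusted p = 0.0187). Its 4 probe sets lay between -0.81 and -1.26, and 1 passed. Adam9 was lower in caudal-half cells (6.20 and 7.32) than in yolk sac cells (8.25 and 8.26), with a difference of -1.50 ± 0.35 (0.0496), with caudal arrays far apart. The call of Adam15 was lost without any 1 array of the tissues compared (up to 0.112), and that of Adam9 in each setting without 1 array but the second caudal one (up to 0.159) and after centring array medians. Without either caudal array Adam9 was also called lower in heart tube cells than in yolk sac cells (adjusted p = 0.0291 by limma).

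The main sheddases of Notch receptors and growth factor ligands passed no comparison. Adam10 read 10.34 and 10.45 in heart tube cells, 9.98 and 10.08 in caudal-half cells, and 10.05 and 10.13 in yolk sac cells, with differences of 0.36, 0.31 and -0.06. Adam17 read 8.38 to 8.98 over all arrays, with differences of 0.14, 0.36 and 0.22, each with a standard error of 0.21. Its 3 probe sets disagreed in sign, with -0.68 to 0.14, -0.88 to 0.36 and -0.21 to 0.22 in the same comparisons. The 4 probe sets of Adam10 gave 0.14 to 0.65, 0.21 to 0.78 and -0.06 to 0.15. For both genes 0 probe sets passed. Adam8, a protease mostly of leukocytes, read 3.49 to 5.24. Of 9 measured ADAMs without protease activity, 3 exceeded the controls and 0 were called by limma, although 4 had an unadjusted p under 0.05 in some comparison and 1 of 3 probe sets of Adam23 passed between heart tube and caudal-half (1.78 ± 0.35, adjusted p = 0.0485 over all probe sets). Probe sets of Mmp16 and Adam33 behaved likewise, with 1 of 4 of Mmp16 higher in heart tube cells than in caudal-half cells and yolk sac cells (1.09 and 1.05), and 1 of 2 of Adam33 lower than in yolk sac cells (-0.80). These probe sets of Mmp16 and Adam33 were not above the controls, and the genes were not called.

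In all, 51 members were called in no comparison, and 30 of them were not above the controls in any tissue. These 30 include the 9 Mmp genes of chromosome 9 and 6 of the 9 ADAMs without protease activity, several of which are known from sperm (Adam2, Adam3, Adam5). Of 10 further ADAM genes 2 exceeded the controls, Adam4 (4.94 to 6.43 over the arrays) and Adam1b (3.86 to 4.13), and 0 were called by limma, with an unadjusted p under 0.05 for 2 of them. The uncalled genes with values in this paragraph were chosen after their values were seen. Several above the controls lay close together over the 6 arrays. Adamtsl1 read 4.92 to 5.0, Adamts16 read 4.94 to 5.05 and Adamts7 read 4.68 to 5.04. Among the uncalled ADAMTS genes Adamts12 had the lowest adjusted p, with 4.61 and 4.83 in heart tube cells, 5.67 and 4.81 in caudal-half cells, and 5.97 and 5.72 in yolk sac cells, and its difference of -1.13 from yolk sac cells missed the threshold (limma adjusted p = 0.0615). Adamts3, a procollagen peptidase, read 3.40 to 4.63, and Mmp24, a membrane-anchored protease, 5.44 to 6.20. Adamts15 read 3.36 and 4.66 in heart tube cells, 3.96 and 4.02 in caudal-half cells, and 4.53 and 5.27 in yolk sac cells, and was not called.

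Markers of other cell types were read in the same comparisons as the heart tube results of Mmp23, Adamts6, Adam19, Mmp2 and Timp1. Of 18 cardiomyocyte genes, 7 were higher in heart tube cells than in caudal-half cells and 9 higher than in yolk sac cells, with 0 lower. Their median level was 6.33 to 6.68 in heart tube cells, 4.61 to 4.79 in caudal-half cells and 4.13 to 4.58 in yolk sac cells. Of the 18 genes, 3 were not above the controls in heart tube cells, 5 in caudal-half cells and 7 in yolk sac cells. The cardiac factor gene Nkx2-5 was among them in each tissue. Of the 15 mesenchymal genes, 7 were higher and 0 lower in heart tube cells than in caudal-half cells. Against yolk sac cells, the only comparison in which Adam19, Mmp2 and Timp1 were called, 4 were higher and 5 lower. Of 19 pan-endothelial genes, 6 were lower and 1 higher in heart tube cells than in caudal-half cells, and 11 lower than in yolk sac cells with 0 higher. The part of these cells in the results was not tested.

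Proteins that activate or restrain these enzymes were read from lists of their own. Among 12 measured activating proteases and plasmin system genes, 3 were higher and 1 lower in heart tube cells than in caudal-half cells. They were Plat, tissue plasminogen activator (2.61 ± 0.37), the proprotein convertase genes Pcsk5 (2.35 ± 0.20) and Furin (1.58 ± 0.17), and Plau, urokinase (-3.54 ± 0.28), all with limma adjusted p from 0.00147 to 0.0122. Plau read 6.45 and 5.65 in heart tube cells, 9.48 and 9.72 in caudal-half cells, and 9.30 and 9.47 in yolk sac cells, whereas Plat read 7.56 and 7.68 in heart tube cells, 4.79 and 5.23 in caudal-half cells, and 3.22 and 4.33 in yolk sac cells. The 2 plasminogen activator genes thus stood in opposite order in heart tube cells and the other tissues. Plat lost its call against caudal-half cells without either heart tube array or the first caudal array (up to 0.0842).

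Against yolk sac cells 3 of the 12 were higher in heart tube cells and 3 lower, with Plat at 3.85 and Plau at -3.33, and with the plasma protein genes Serpinf2 (-2.26) and Plg (-2.17). The yolk sac mean of Plat and the heart tube and caudal-half means of Serpinf2 and Plg were not above the controls. Between caudal-half cells and yolk sac cells 2 were lower and 0 higher, Serpinf2 (-2.22) and Pcsk5 (-1.19). Plg lost its call without either heart tube or the first yolk sac array (limma adjusted p up to 0.129), and Pcsk5 without the second caudal or either yolk sac array (up to 0.0776). Serpinf2 and Plg moved with the visceral endoderm list given above, and its part was not tested. The medians of the 12 genes were -0.20, -0.28 and -0.01, beside -0.08, -0.06 and 0.02 over all genes.

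Of 11 inhibitors and partners, 3 were lower in heart tube cells than in yolk sac cells and 0 higher. These were Tspan15 (-2.17 ± 0.30), Tspan33 (-1.53 ± 0.31) and Tspan14 (-0.85 ± 0.19), tetraspanins that guide ADAM10 to the cell surface. In the other 2 comparisons limma called 0 of 11, where 3 and 5 had an unadjusted p under 0.05. Tspan14 lost its call whichever array was left out (limma adjusted p up to 0.182), Tspan33 without either heart tube or the second yolk sac array (up to 0.134) and Tspan15 without the first heart tube array (0.0519). The membrane inhibitor gene Reck (0.79, -0.03 and -0.82) passed none, and the medians of the 11 genes were -0.16, -0.23 and -0.30.

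Of 12 astacin protease and collagen processing genes limma called 0 between heart tube cells and caudal-half cells, where 4 had an unadjusted p under 0.05. Against yolk sac cells 1 was higher in heart tube cells and 3 lower. Bmp1, the procollagen C-proteinase, was higher (1.40 ± 0.18), while the lysyl oxidase genes Lox (-2.12) and Loxl3 (-1.73) and the meprin gene Mep1a (-2.02) were lower. In caudal-half cells 4 were lower than in yolk sac cells, with Pcolce, an enhancer of Bmp1, at -3.09 ± 0.40, Loxl1 at -2.01, Lox at -1.94 and Loxl3 at -1.69, and 1 was higher, Bmp1 (0.79). Lox was not above the controls in heart tube or caudal-half cells, nor Loxl1 in caudal-half cells. Without the first heart tube array the heart tube calls of Loxl3 and Mep1a were lost (limma adjusted p up to 0.0628). In the comparison of caudal-half cells with yolk sac cells, that of Loxl1 was lost without either caudal or the second yolk sac array (up to 0.111) and that of Loxl3 without the last (0.0540). The alternative settings were not read for the Bmp1 difference of 0.79. The medians of the 12 genes were -0.13, -0.55 and -0.33.

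Matrix proteins that these proteases cut were read likewise. Of 22 measured matrix genes, 7 were higher and 1 lower in heart tube cells than in caudal-half cells, 6 higher and 7 lower than in yolk sac cells, and 2 higher and 7 lower in caudal-half cells than in yolk sac cells, with medians of -0.08, -0.18 and -0.56. Vcan, versican, read 11.85 and 11.92 in heart tube cells, 6.87 and 7.25 in caudal-half cells, and 8.79 and 7.62 in yolk sac cells. It was highest in heart tube cells, with differences of 4.83 ± 0.37 and 3.68 ± 0.37 (limma adjusted p = 0.00136 and 0.00209). Of the versican-cutting proteases, Adamts4 and Adamts9 had their lowest means in heart tube cells, whereas Adamts1 and Adamts5 had theirs in caudal-half cells. Adamts1 was not called between heart tube cells and caudal-half cells (0.47, limma adjusted p = 0.248). The caudal-half mean of Adamts5 was not above the controls. Fbln2, fibulin 2, was also highest in heart tube cells, by 4.07 over caudal-half cells and 4.33 over yolk sac cells. Its means in those 2 tissues were not above the controls, so they were not ranked.

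Tnc, tenascin C, and Col3a1, a fibrillar collagen, were higher in heart tube cells than in caudal-half cells (4.46 and 3.53), and Nid2, a basement membrane protein and the 1 gene called in the other direction, was lower (-1.40 ± 0.17). The collagen gene Col1a1 read 7.53 and 7.74 in heart tube cells, 8.42 and 8.12 in caudal-half cells, and 12.21 and 12.16 in yolk sac cells. Its differences from yolk sac cells were -4.55 and -3.91, and Dcn, decorin, differed from it by -2.43 in heart tube cells. In caudal-half cells Col1a2 (-3.52), Tnc (-3.49) and Col3a1 (-2.64) were also lower than in yolk sac cells. Dcn was not above the controls in heart tube cells. Col1a1, Col1a2, Col3a1 and Dcn also belong to the mesenchymal list above. The calls given for Vcan, Fbln2, Tnc, Col3a1, Col1a1, Col1a2 and Dcn held in each of the 14 alternative settings. The alternative settings were not read for Nid2.

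**Figure D5:**
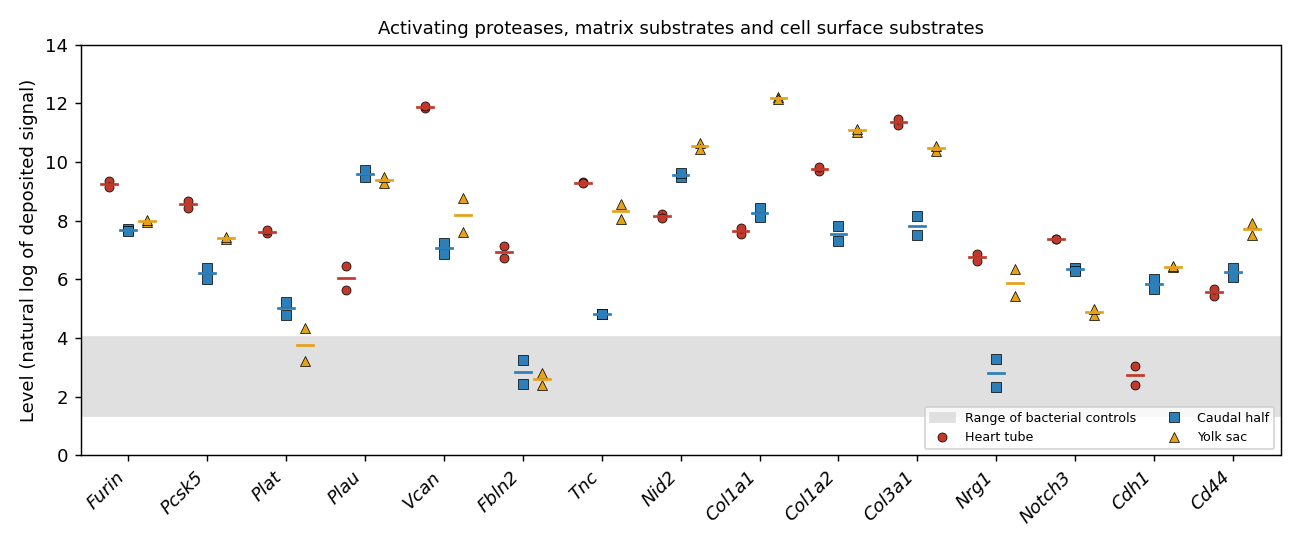
Levels (natural log of deposited signal) of activating proteases, matrix proteins and cell surface proteins on each of 6 arrays, with the tissue means as short lines and the range of the bacterial controls in grey. Plat, Vcan and Fbln2 stand highest in heart tube cells, Plau and Cdh1 lowest there, and Col1a1 highest in yolk sac cells.

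Cell surface proteins shed by ADAM10 or ADAM17 were measured for 34 genes. In the heart tube 5 were higher and 4 lower than in caudal-half cells, and 3 higher and 9 lower than in yolk sac cells, while in caudal-half cells 3 were higher and 6 lower than in yolk sac cells, with medians of -0.13, -0.40 and -0.20. Nrg1, the ligand of ErbB receptors made by endocardium, read 6.88 and 6.64 in heart tube cells, 2.33 and 3.29 in caudal-half cells, and 6.34 and 5.42 in yolk sac cells. Its heart tube minus caudal-half difference was 3.95 ± 0.41 and its caudal-half minus yolk sac difference -3.07 ± 0.41 (limma adjusted p = 0.00382 and 0.00769). The caudal mean was not above the controls.

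The E-cadherin gene Cdh1 was lower in heart tube cells than in caudal-half cells (-3.10) and yolk sac cells (-3.70). Of 11 epithelial marker genes, Cdh1 itself among them, 6 and 7 were lower in heart tube cells in these comparisons with 0 higher. Their median level was 4.24 to 4.30 in heart tube cells, 5.92 to 6.23 in caudal-half cells and 6.26 to 6.43 in yolk sac cells. The part of epithelial cells in these results was not tested. Against caudal-half cells the heart tube also differed in the Notch ligand gene Dll4 (-1.54) and in Pdgfrb, a receptor of mural cells (1.52). Pdgfrb also belongs to the mesenchymal list above. Against yolk sac cells the heart tube differed in Notch3 (2.5), in Cd44, the hyaluronan receptor (-2.15), and in the adhesion gene Icam1 (-2.01). Caudal-half cells differed from yolk sac cells in the N-cadherin gene Cdh2 (3.67), in Vcam1 (-2.14) and in the syndecan gene Sdc4 (-1.63). Cdh1 was not above the controls in heart tube cells, nor Vcam1 in caudal-half cells. Dll4 lost its call without any 1 of the 4 arrays compared (limma adjusted p up to 0.135), Pdgfrb without the first heart tube or first caudal array (up to 0.0533) and Cdh2 without the second caudal array (0.0519).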

How the data were processed

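RNA of 6 samples in 3 tissues was hybridised to Affymetrix arrays. The deposited values are one positive signal per probe set and array, which the authors computed by RMA (R package affy), per the submitters' processing notes. The sources used here give no versions, chip definition, genome build or scan dates. Here the natural log was taken and each gene was represented by the probe set, annotated to that symbol alone, with the highest mean over 6 arrays (34945 probe sets, 18193 genes). All 70 members matched the GRCm38.p6 gene table by Entrez identifier, with 0 changed symbols.

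Tissue means were fitted in limma 3.58.1 (R 4.3.3, lmFit, eBayes) on 6 arrays with tissue as the only term, with 3 residual and 3.48 prior degrees of freedom. Precision is limited by the few arrays (median standard error 0.210). P-values were two-sided and adjusted over all 18193 genes. The fit was tested on simulated data. The members, lists, roles and rules were chosen with earlier results of these data known. Named are all called members, a fixed set of others, and up to 4 called genes per list and comparison. Nid2, Reck and the difference of Bmp1 between caudal-half and yolk sac cells are given beyond that limit. The naming rule also lists Mmp15, Adamts2 and Adamts13, which are not among the 70 members and were not analysed here, and no protein sequences were used.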

Additional observations from a re-analysis of the deposited data

How the results depend on the processing

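Of the 32 calls of members, 10 held under all 14 alternatives and 0 changed sign. Quantile normalization again, the removal of genes not above the controls and log2 of the signal ended 0 calls, as did an intensity trend of the prior variance. The mean of all probe sets ended 1 call and centred array medians 3. The members' counts that changed by more than 1.5 times are given here. With the replicate number as a block, 3 members were lower in heart tube cells than in caudal-half cells and 4 lower in caudal-half cells than in yolk sac cells, against 5 and 8 without it, and 7 calls were lost. The deviations of same-numbered arrays correlated at -0.01 to 0.05, so no shared shift by number was seen. Whether same-numbered samples came from the same embryos cannot be told from these values. With only the 4 arrays compared, the same 2 counts were also 3 and 4. With array medians centred, 5 members were lower in caudal-half cells than in yolk sac cells.

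Without 1 array, the heart tube had 2 to 5 members higher and 1 to 4 lower than caudal-half cells, and 1 to 4 higher and 5 to 9 lower than yolk sac cells, while caudal-half cells had 0 to 2 higher and 3 to 4 lower than yolk sac cells. An array left alone in its tissue was taken to vary like the others. The background correction could not be varied on summarised values. Further calls among the named members were those of Adam12 between caudal-half and yolk sac, Adam19 and Mmp9 between heart tube and caudal-half, Mmp14 and Adam9 between heart tube and yolk sac, and Timp3 between caudal-half and yolk sac, each in 1 to 3 alternatives.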
